A study of Mus musculus with 11 samples.

Results

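Fibroblast growth factors (FGFs) are secreted ligands that bind receptor tyrosine kinases on the cell surface together with heparan sulfate, and the receptors pass the signal through RAS to the kinase ERK. In mouse embryonic stem cells (ESCs), Fgf4 made by the cells themselves is the best known source of ERK signalling, which prepares the cells to leave the pluripotent state. Bone morphogenetic protein (BMP) signals, received through Bmpr1a among other receptors, are known to help hold ESCs in that state.

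The genes described here are the ligands Fgf4, Fgf8, Fgf10, Fgf15 and Fgf17 and the receptors Fgfr1, Fgfr2, Fgfr3 and Fgfr4, which were found by symbol through the platform annotation. All 9 were measured, each by 1 transcript cluster (the array's unit for a gene), among 19935 genes. The series holds 11 Affymetrix arrays of mouse ESCs, each of labelled material made from total RNA. Mutant cells labelled Bmpr1a-/- were profiled after 3 days in N2B27 (n = 3) and in ESC medium (n = 2, numbered 2 and 3). Control cells of the wild-type E14 line were profiled after 3 days in N2B27 (n = 3) and in ESC medium (n = 3). N2B27 is a serum-free differentiation medium without the factors that hold ESCs undifferentiated. The mutant cells came from lines named C1-6, Fr124 and Fr88, and the labels do not give the line on each array, nor the part of Bmpr1a that was deleted. Genotype and cell line can therefore not be told apart in any genotype difference below. Whether the arrays of a group are separate cultures is not in the labels, and the p-values below rest on array-to-array spread that may be technical.

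Values are log2 expression centred gene by gene, so groups can be compared for 1 gene but genes cannot be ranked by level. Bmpr1a read 0.15, -0.14 and -0.05 in mutant cells in N2B27, against 0.61, 0.68 and 0.76 in control cells there (log2 difference -0.70, adjusted p = 0.00211). In ESC medium it read -0.03 and 0.00 in mutant cells, against 0.37, 0.16 and 0.25 in control cells (-0.27, adjusted p = 0.145). Mutant replicate 2 in N2B27 stood apart from the other arrays on the third principal component, at 22.3 against -12.0 to 11.2. The pluripotency markers fell in N2B27 in both genotypes, 11 of 11 called in each. Their mean stood at -0.48 to -0.29 in mutant and -1.16 to -0.85 in control cells in N2B27, against 1.56 in both mutant arrays and 1.18 to 1.44 in control cells in ESC medium.

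**Figure D1:**
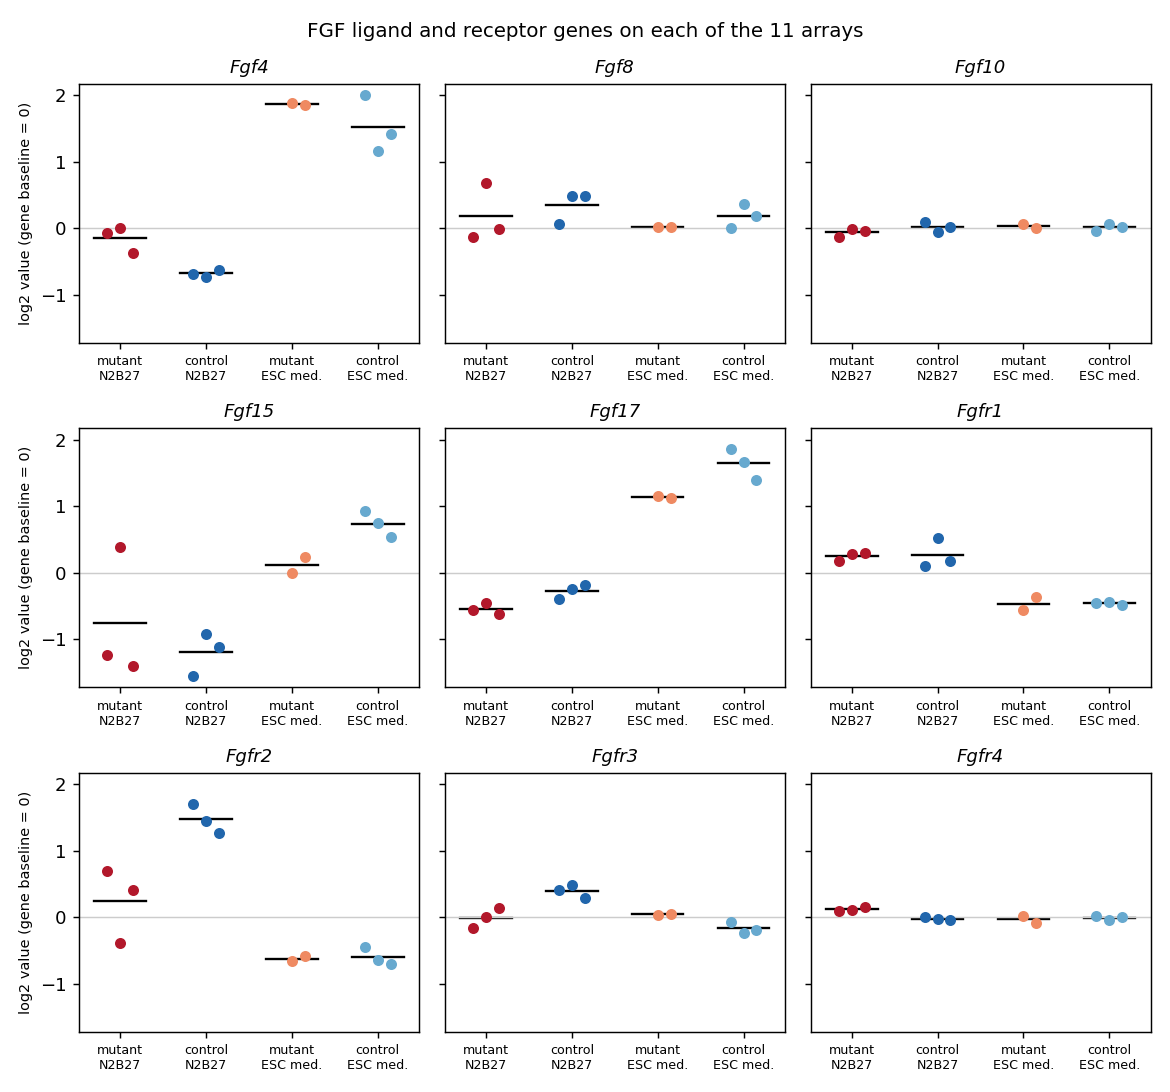
Log2 value (vertical axis, the baseline of each gene is 0) of the 9 FGF ligand and receptor genes on every array, with groups along the horizontal axis. Points are arrays and black lines are group means. Fgf4 and Fgf17 lie lower in N2B27 than in ESC medium in both genotypes, and Fgfr2 reaches 1.27 to 1.70 only in control cells in N2B27.

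How the FGF genes changed when ESCs left ESC medium was addressed by N2B27 against ESC medium within each genotype. The called ligands fell and the called receptors rose. In mutant cells 4 of the 9 genes were called (adjusted p under 0.05 over all genes, limma), with Fgf4 and Fgf17 lower and Fgfr1 and Fgfr2 higher. In control cells 6 of 9 were called, with Fgf4, Fgf15 and Fgf17 lower and Fgfr1, Fgfr2 and Fgfr3 higher. Over all genes, 25.2% were called in mutant cells (14.9% higher, 10.3% lower) and 26.1% in control cells (12.8% higher, 13.3% lower). The median difference of the 5 ligands was -0.87 in mutant and -1.92 in control cells. The value in mutant cells is that of Fgf15, which moves to -1.44 without mutant replicate 2 in N2B27. The median of the 4 receptors was 0.44 in mutant and 0.64 in control cells, beside 0.01 and 0.02 over all genes. The arrays hold whole cultures, so fewer cells of a type and less RNA per cell cannot be told apart.

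Fgf4, the ligand of the early epiblast, fell furthest of the ligands in both genotypes. It read -0.07, 0.00 and -0.38 in mutant cells in N2B27, against 1.88 and 1.86 in mutant cells in ESC medium. In control cells it read -0.69, -0.73 and -0.63 in N2B27, against 2.00, 1.16 and 1.42 in ESC medium. In neither genotype did the arrays of the media overlap, as in 43.5% of all genes in mutant and 43.9% in control cells. The log2 difference was -2.02 (SE 0.20, adjusted p = 9.76e-05) in mutant and -2.21 (SE 0.18, adjusted p = 4.23e-05) in control cells, a fold of 4.05 and 4.61. The factors Pou5f1 and Sox2, which act together on an enhancer of Fgf4 downstream of its coding exons, fell too. Sox2 differed by -1.46 in mutant and -1.42 in control cells and Pou5f1 by -0.43 and -0.80, while Nanog differed by -1.82 and -1.10. All 6 differences were called, but the call of Pou5f1 in mutant cells was lost under 6 alternative settings (adjusted p up to 0.147) and that of Nanog in control cells under 5 (up to 0.085).

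The bases before the start of Fgf4 and of Fgfr2 are shown because, among the 5 ligands and 4 receptors described here, these changed most in control cells, in opposite directions. They are the 250 bases before each annotated start, from RefSeq, build GRCm38.p6. Fgf4 lies at chr7:144861136-144861385 on the plus strand and Fgfr2 at chr7:130266809-130267058 on the minus strand. Each runs 5′ to 3′ along its gene, and capitals mark GGGCGG (the GC box), CCAAT (the CCAAT box) and TATATA, searched on both strands.
Fgf4: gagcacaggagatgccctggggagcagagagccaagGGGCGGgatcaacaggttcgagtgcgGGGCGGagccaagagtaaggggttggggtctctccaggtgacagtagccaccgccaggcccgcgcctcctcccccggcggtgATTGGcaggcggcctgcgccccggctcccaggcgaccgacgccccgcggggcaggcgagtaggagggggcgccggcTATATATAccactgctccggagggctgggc
Fgfr2: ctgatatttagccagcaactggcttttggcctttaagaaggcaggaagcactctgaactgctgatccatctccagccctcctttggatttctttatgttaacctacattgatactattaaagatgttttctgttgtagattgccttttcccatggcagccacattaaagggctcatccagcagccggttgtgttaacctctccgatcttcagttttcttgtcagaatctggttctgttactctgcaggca
The Fgf4 stretch held 2 GC boxes, 1 CCAAT box and 2 overlapping TATATA matches close to the start, and the Fgfr2 stretch held none of these. Among 32851 promoters of this length, 32.7% held GGGCGG, 33.8% CCAAT and 5.2% TATATA, and TATAAA, in neither stretch, was in 12.4%. The Fgf4 stretch had 21 CpG dinucleotides and 71.2% G or C, and the Fgfr2 stretch 2 and 44.0%, beside medians of 6 and 52.4% over all promoters. These matches describe letters in a short window and do not show a site in use.

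Fgf17, a ligand of the Fgf8 subfamily that takes part in midbrain and cerebellum development, had -0.57, -0.46 and -0.63 in mutant cells in N2B27, against 1.15 and 1.13 in mutant cells in ESC medium. Control cells had -0.39, -0.25 and -0.18 in N2B27, against 1.87, 1.67 and 1.40 in ESC medium. The media were far apart in both genotypes beside the spread within a group, which was widest in control cells in ESC medium (SD 0.24). The difference was -1.69 (SE 0.12, adjusted p = 1.78e-05) in mutant and -1.92 (SE 0.11, adjusted p = 7.71e-06) in control cells.

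Fgf15, the mouse counterpart of human FGF19 and a ligand of the embryonic neural tube and the gut, behaved unevenly in mutant cells. It read -1.24, 0.38 and -1.40 in mutant cells in N2B27, against 0.00 and 0.24 in mutant cells in ESC medium. Mutant replicate 2 in N2B27 lay above both mutant arrays in ESC medium while the other two lay below them. Control cells read -1.55, -0.93 and -1.12 in N2B27, against 0.93, 0.75 and 0.54 in ESC medium, with no overlap. The gene fell in control cells by 1.94 on the log2 scale (SE 0.39, adjusted p = 0.00476). In mutant cells the difference was -0.87 (SE 0.44, adjusted p = 0.194), and without mutant replicate 2 in N2B27 it was -1.44 (adjusted p = 0.000593). On that array the mean of 8 mesoderm and primitive streak markers was 0.51, against 0.06 and 0.03 on the other mutant arrays in N2B27 and -0.09 to -0.03 in control cells there. Their part in the value of Fgf15 was not tested.

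Fgf8, a ligand of the primitive streak and of the boundary between midbrain and hindbrain, showed no called change. It read -0.13, 0.68 and -0.02 in mutant cells in N2B27, against 0.01 and 0.02 in mutant cells in ESC medium. Control cells read 0.06, 0.49 and 0.49 in N2B27, against 0.00, 0.36 and 0.19 in ESC medium. Mutant replicate 2 in N2B27 was again the highest array of its group, and the media overlapped in both genotypes. The difference was 0.16 (95% interval -0.34 to 0.66) in mutant and 0.17 (-0.28 to 0.62) in control cells. Fgf10, a ligand made by mesenchyme that drives limb and lung budding, stayed between -0.13 and 0.10 on every array. Its differences were -0.09 (95% interval -0.25 to 0.06) in mutant and 0.01 (-0.13 to 0.14) in control cells.

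Fgf3, Fgf4 and Fgf15 are consecutive protein-coding genes on chromosome 7 in the RefSeq gene table. Fgf3 lay between -0.19 and 0.22 on all 11 arrays, without the change of its neighbours.

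**Figure D2:**
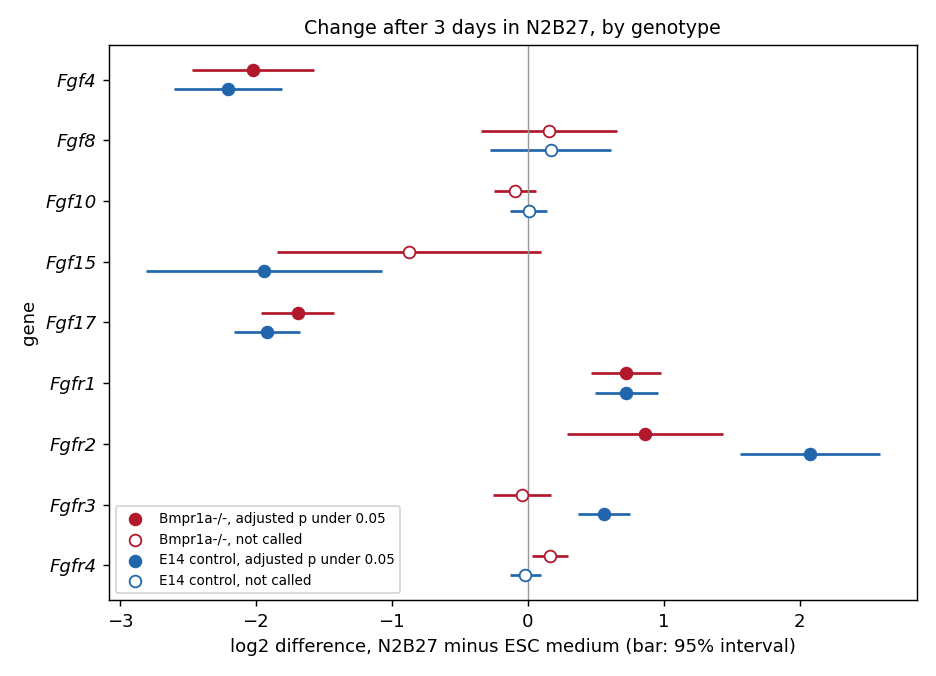
Log2 difference between N2B27 and ESC medium (horizontal axis) for each gene, in mutant cells (red, above) and control cells (blue, below). Bars are 95% intervals and filled points have an adjusted p under 0.05. Fgf4, Fgf15 and Fgf17 lie left of 0 and Fgfr1 and Fgfr2 right of it, and Fgfr2 is at 0.86 in mutant and 2.08 in control cells.

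Among the receptors, Fgfr1, the main FGF receptor of the epiblast, rose in both genotypes. It read 0.18, 0.28 and 0.30 in mutant cells in N2B27, against -0.57 and -0.37 in mutant cells in ESC medium. Control cells read 0.10, 0.52 and 0.17 in N2B27, against -0.46, -0.44 and -0.49 in ESC medium. Every array in N2B27 lay above every array in ESC medium. The rise was 0.72 (SE 0.12, adjusted p = 0.00132) in mutant and 0.73 (SE 0.10, adjusted p = 0.00073) in control cells, a fold of 1.65 in each.

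Fgfr2, a receptor of epithelia and of the extraembryonic lineages, rose most of the receptors in control cells. It read 0.70, -0.39 and 0.41 in mutant cells in N2B27, against -0.66 and -0.59 in mutant cells in ESC medium. Control cells read 1.70, 1.45 and 1.27 in N2B27, against -0.45, -0.64 and -0.71 in ESC medium. The media did not overlap in either genotype, but mutant replicate 2 in N2B27 lay close to the arrays in ESC medium. The rise was 0.86 (SE 0.26, adjusted p = 0.0328) in mutant and 2.08 (SE 0.23, adjusted p = 0.000198) in control cells. The call in mutant cells was lost with only the groups compared in the fit (adjusted p = 0.115) and without any 1 of the arrays other than mutant replicate 2 in N2B27 (adjusted p 0.0801 to 0.164). Without that replicate the rise was 1.18 (adjusted p = 0.000409).

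Fgfr3, a receptor of neural precursors and of growing cartilage, was called in control cells but not in mutant cells. Mutant cells read -0.16, 0.00 and 0.14 in N2B27, against 0.03 and 0.05 in ESC medium. Control cells read 0.41, 0.49 and 0.29 in N2B27, against -0.08, -0.24 and -0.19 in ESC medium. The media overlapped in mutant cells, with a difference of -0.04 (95% interval -0.26 to 0.17), and were apart in control cells, with a rise of 0.56 (SE 0.09, adjusted p = 0.00109). The test of the difference between these changes is the interaction given further on.

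Fgfr4, the receptor through which Fgf15 acts in liver, lay between -0.09 and 0.16 on every array. In mutant cells it read 0.10, 0.11 and 0.16 in N2B27, against 0.02 and -0.09 in ESC medium (difference 0.16, SE 0.06, adjusted p = 0.0699). In control cells the difference was -0.02 (95% interval -0.13 to 0.10).

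How Bmpr1a-/- cells differed from E14 cells in the FGF genes was addressed in each medium, and these comparisons use the same arrays as those between media. In N2B27, Fgfr2 and Fgfr3 were lower in mutant cells and the other 7 genes were not called, and in ESC medium Fgf17 alone of the 9 was called, lower in mutant cells. Over all genes, 5.74% were called in N2B27 (4.1% higher, 1.64% lower) and 6.14% in ESC medium (3.09% higher, 3.05% lower). At an unadjusted p under 0.05 the counts of members were 5 in N2B27 and 1 in ESC medium. No share of all genes was counted at that threshold, here or further on, so such counts cannot be set against the shares above.

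In N2B27, the 3 mutant arrays of Fgfr2 lay below the 3 control arrays listed above, with a mean of 0.24 ± 0.56 in mutant and 1.47 ± 0.22 in control cells (SD, n = 3 each). The log2 difference was -1.23 (SE 0.23, adjusted p = 0.0144), a fold of 2.35. Without mutant replicate 2 it was -0.92 (adjusted p = 0.00688), and the call was lost without control replicate 1 (adjusted p = 0.0508) and with only the groups compared (0.0778). Fgfr3 had a mean of -0.01 ± 0.15 in mutant and 0.39 ± 0.10 in control cells (SD, n = 3 each), again without overlap. Its difference was -0.40 (SE 0.09, adjusted p = 0.0259), and it was not called without control replicate 1 (0.0704) or 2 (0.0936), without mutant replicate 1 (0.0545) or with only the groups compared (0.0989).

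Fgf4, Fgf17 and Fgfr4 also had mutant and control arrays in N2B27 that did not overlap, without passing the test. Fgf4 was at -0.15 ± 0.20 in mutant and -0.68 ± 0.05 in control cells (SD, n = 3 each), with a difference of 0.53 (SE 0.18, adjusted p = 0.128). Fgf17 differed by -0.28 (SE 0.11, adjusted p = 0.188) and Fgfr4 by 0.15 (SE 0.05, adjusted p = 0.143). Over all genes the arrays of the genotypes in N2B27 did not overlap in 20.2%. Fgf8 differed by -0.18 (95% interval -0.62 to 0.27) and Fgf10 by -0.08 (-0.22 to 0.06). Fgf15 differed by 0.45 (95% interval -0.42 to 1.32), and without mutant replicate 2 by -0.12 (adjusted p = 0.76).

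In ESC medium, the mutant arrays of Fgf17, at 1.15 and 1.13, lay below the control arrays, at 1.87, 1.67 and 1.40. The difference was -0.51 (SE 0.12, adjusted p = 0.0376). Leaving out control replicate 1, control replicate 2 or either of the mutant arrays ended the call (adjusted p 0.0632 to 0.215), as did fitting only the groups compared (0.0961). Fgf15 differed by -0.62 (95% interval -1.59 to 0.35), with its mutant arrays below all control arrays, a lack of overlap found in 39.4% of all genes between the genotypes there. Fgf4 differed by 0.34 (95% interval -0.10 to 0.79), and passed when control replicate 1 was left out (0.58, adjusted p = 0.0275) or arrays were weighted (0.53, adjusted p = 0.0495). Fgf8 differed by -0.16 (95% interval -0.66 to 0.34), Fgf10 by 0.02 (-0.13 to 0.17), Fgfr2 by -0.02 (-0.59 to 0.55), Fgfr3 by 0.20 (-0.01 to 0.42) and Fgfr4 by -0.03 (-0.16 to 0.10).

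Fgfr1 is the only one of the 9 genes on chromosome 8, whose genes were shifted upward in mutant cells. The median difference over 954 other genes of that chromosome was 0.172 in N2B27 and 0.118 in ESC medium, beside -0.0047 and -0.0152 over the autosomes apart from it. Fgfr1 differed by -0.01 in both media, with 95% intervals of -0.24 to 0.22 in N2B27 and -0.26 to 0.25 in ESC medium. Set against the median of chromosome 8 on the same array, it differed by -0.10 (adjusted p = 0.702) and -0.09 (adjusted p = 0.807).

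**Figure D3:**
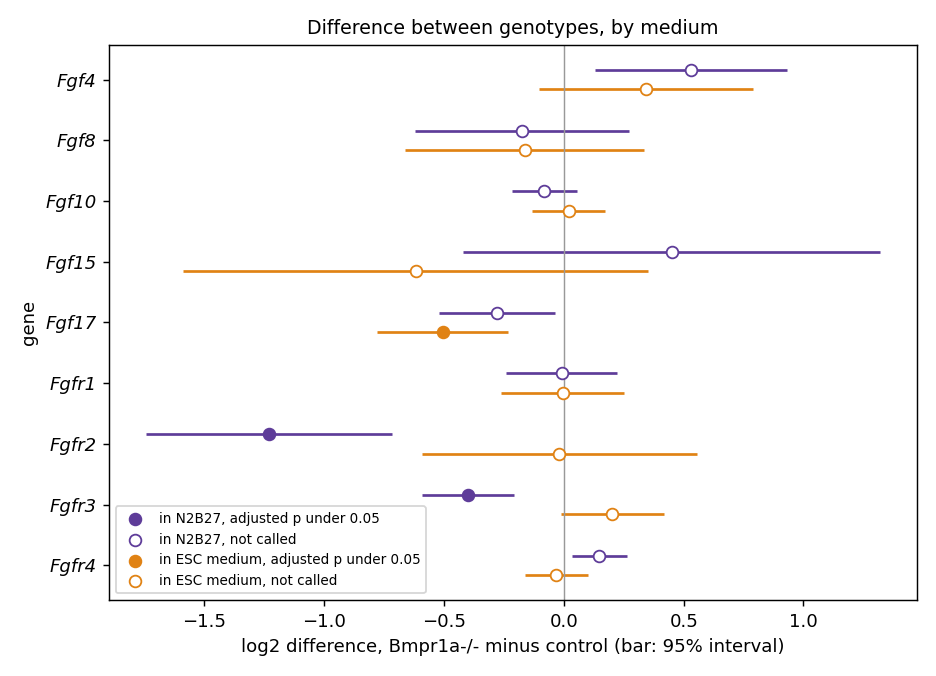
Log2 difference between Bmpr1a-/- and control cells (horizontal axis) for each gene, in N2B27 (purple, above) and in ESC medium (orange, below). Bars are 95% intervals and filled points have an adjusted p under 0.05, which are Fgfr2 at -1.23 and Fgfr3 at -0.40 in N2B27 and Fgf17 at -0.51 in ESC medium.

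Whether the genotype difference itself depended on the medium was addressed by the interaction, in which the difference measured in ESC medium is taken from the one in N2B27. Fgfr3 alone of the 9 was called, with a negative value, beside 2.12% of all genes (1.57% positive, 0.552% negative). Its genotype difference was -0.40 in N2B27 and 0.20 in ESC medium, an interaction of -0.60 (SE 0.13, adjusted p = 0.0441). Fgfr2 had an interaction of -1.21 (SE 0.35, adjusted p = 0.122). The call of Fgfr3 was lost when any of 9 of the 11 arrays was left out (adjusted p 0.051 to 0.162) and held without the other two, with adjusted p down to 0.03. Fgfr2 was called without mutant replicate 1 (-1.44, adjusted p = 0.0475) or 2 (-0.90, adjusted p = 0.0398) in N2B27 and with array weights (-1.05, adjusted p = 0.00819). The remaining 7 genes had interactions between -0.10 and 1.07, and the value of 1.07 was that of Fgf15 (SE 0.59, adjusted p = 0.488).

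Other genes of the pathway were taken in lists by their role. Of the 17 FGF family genes that are not members, listed as other ligands, Fgf5, the ligand that marks the postimplantation epiblast, rose most in N2B27. It read 0.76, 1.01 and 0.00 in mutant cells in N2B27, against -2.14 and -1.70 in ESC medium, and 0.54, 1.15 and 0.91 in control cells in N2B27, against -1.75, -1.08 and -1.67 in ESC medium. The rise was 2.51 (SE 0.31, adjusted p = 0.000294) in mutant and 2.37 (SE 0.28, adjusted p = 0.000243) in control cells. Fgf14, of the FGF subgroup that stays inside the cell, rose by 0.41 and 0.50, and Fgf11, of the same subgroup, rose in control cells by 0.60, a call lost under 3 alternative settings (adjusted p up to 0.0628). No other gene of the list was called in either genotype, and the list medians were -0.03 in mutant and 0.05 in control cells. Thus 2 of the 17 rose in mutant and 3 in control cells, where 14.9% and 12.8% of all genes rose. Between genotypes 0 of the 17 were called by limma in either medium, where 5.74% of all genes were called in N2B27 and 6.14% in ESC medium. At an unadjusted p under 0.05 there were 2 in N2B27 and 0 in ESC medium. Fgf5 differed by -0.28 (adjusted p = 0.693) in N2B27 and -0.42 (adjusted p = 0.588) in ESC medium.

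Of 22 listed co-receptors, binding proteins and heparan sulfate genes 21 were analysed, of which 9 rose in mutant and 7 in control cells in N2B27 and none fell, with medians of 0.32 and 0.18. Over all genes, 14.9% rose in mutant and 12.8% in control cells. Fgfbp1, a secreted carrier of FGFs, rose by 1.63 (SE 0.29) in mutant and 2.01 (SE 0.26) in control cells. Gpc1, a cell surface heparan sulfate proteoglycan, rose in mutant cells by 1.06. Between genotypes 3 of the 21 were lower in mutant cells in N2B27 and 4 in ESC medium, and none was higher, where 1.64% and 3.05% of all genes were lower. Over the alternatives these counts ran between 0 and 5 in N2B27 and between 1 and 7 in ESC medium. Of the 3 in N2B27, Gpc3 and Gpc4 lie on the X chromosome, and the third, Hs6st1, was not called once genes of chromosomes 8, X and Y were left out (adjusted p = 0.0582). In N2B27, Gpc4, a proteoglycan gene of the same glypican family, differed by -0.63 (SE 0.11, adjusted p = 0.0116). It read -0.12, -0.02 and 0.10 in mutant cells there, against 0.44, 0.78 and 0.62 in control cells. In ESC medium, Gpc1 differed by -0.67 and Sulf1, which trims sulfate groups from heparan sulfate, by -0.57. Gpc1 was not called without mutant replicate 2 in ESC medium (-0.64), nor Sulf1 without mutant replicate 3 there (-0.47). In the interaction Sulf1 (0.89) and Ndst2 (0.72), a heparan sulfate sulfotransferase, were called, 2 of the 21, where 1.57% of all genes were called positive. Over the alternatives between 0 and 3 genes of the list were called. Sulf1 was not called without mutant replicate 2 or 3 in ESC medium (adjusted p up to 0.0665), and Ndst2 under 3 alternative settings (up to 0.0965).

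Of 22 listed genes that relay the signal inside the cell, 15 were analysed here. Of these 4 rose and 1 fell in mutant and 3 rose and 1 fell in control cells in N2B27, with medians of -0.07 and 0.03, shares near the 25.2% and 26.1% called over all genes. The gene that fell was Gab1, an adaptor of receptor tyrosine kinases, at -0.57 in mutant and -0.94 in control cells. Ptpn11, the phosphatase needed for full RAS activation, rose by 0.65 and 0.40. Between genotypes 2 of the 15 were higher in mutant cells in N2B27 and 1 in ESC medium, and none was lower. The shares of all genes that were higher were 4.1% and 3.09%. Those of the list were Gab1 (0.67) and Araf (0.30) in N2B27 and Araf (0.62) in ESC medium. Both genes dropped out when genes of chromosomes 8, X and Y were left out, so neither has a value under that setting. The part of the upward shift of chromosome 8 in the difference of Gab1 was not tested. The call of Gab1 in N2B27 was lost with only the groups compared (adjusted p = 0.0787). Araf, a RAF kinase, is on the X chromosome, and its call in N2B27 was lost under 7 alternative settings (adjusted p up to 0.119). These counts ran between 0 and 4 in N2B27 and between 0 and 5 in ESC medium over the alternatives.

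Of 16 feedback inhibitors and target genes of FGF-ERK signalling, 7 were higher in mutant cells in N2B27 and none lower, with a median of 0.64. In ESC medium 3 were lower and none higher, with a median of -0.36. Over all genes, 4.1% were higher in N2B27 and 3.05% lower in ESC medium. Over the alternatives the counts ran between 3 and 9 in N2B27 and between 2 and 8 in ESC medium. Spry2, an inhibitor of receptor signalling, read -0.14, 0.07 and -0.72 in mutant cells in N2B27, against -1.50, -1.43 and -1.44 in control cells, a difference of 1.20 (SE 0.17, adjusted p = 0.00411). Dusp6, the ERK phosphatase, differed by 0.78 (SE 0.18, adjusted p = 0.0312) in N2B27 and -0.88 (SE 0.20, adjusted p = 0.0281) in ESC medium, with an interaction of 1.66 (SE 0.27, adjusted p = 0.0145). Its call in ESC medium was lost without control replicate 2 (adjusted p = 0.0954) or 3 (0.0891) and without mutant replicate 2 (0.268) or 3 (0.0641). The interaction of Dusp6 was not called without mutant replicate 2 in ESC medium (1.48). In N2B27 against ESC medium, 5 of the 16 rose and 1 fell in mutant cells, and 2 rose and 9 fell in control cells. Over all genes, 14.9% rose and 10.3% fell in mutant cells, and 12.8% rose and 13.3% fell in control cells. Spry4, a relative of Spry2, fell in both genotypes, at -2.14 in mutant and -2.62 in control cells. In the interaction 6 of the 16 were called, all positive, and between 1 and 8 over the alternatives, where 1.57% of all genes were called positive.

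**Figure D4:**
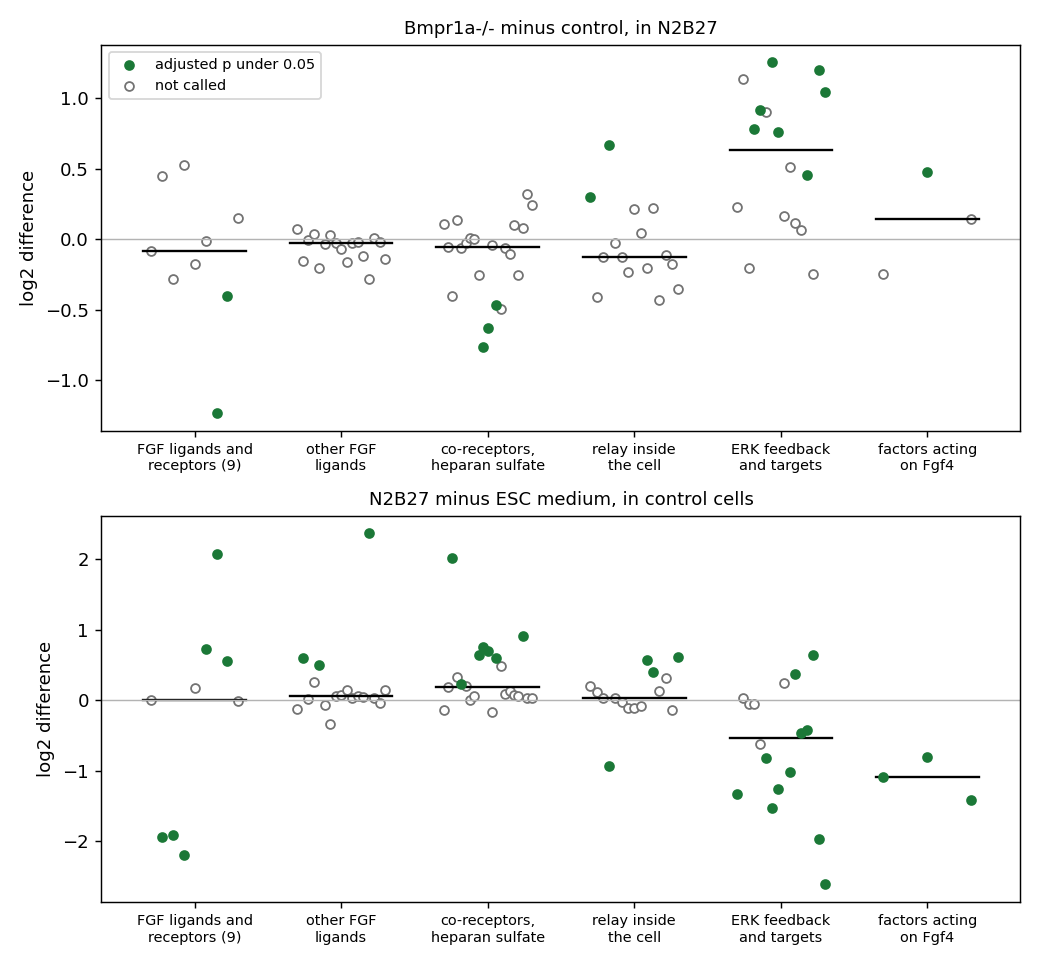
Log2 difference (vertical axis) of the 9 FGF ligands and receptors and of each pathway list (horizontal axis), for mutant minus control cells in N2B27 (top) and for N2B27 minus ESC medium in control cells (bottom). Each point is a gene, filled where its adjusted p is under 0.05, and black lines are list medians, which for the ERK feedback and target genes are 0.64 at the top and -0.54 at the bottom.

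For the 6 genes called in some comparison, the genes with the nearest pattern were found by the root mean square difference of values over the 11 arrays, after each gene's own mean was taken away. Fgf4 was nearest to Nr5a2 (0.155, where the spread of Fgf4 itself was 1.079), Tns3 and Mcf2. Fgf15 was nearest to Nodal (0.271, beside its own spread of 0.900), Mycn and Ccnd1, and Ccnd1 is also on chromosome 7, the third protein-coding gene beyond Fgf4. Fgf17 was nearest to Accsl (0.245, beside 0.953), Cnpy1 and Id1. Fgfr1 was nearest to Wdr54 (0.084, beside 0.376), Gnai2 and Foxh1. Fgfr2 was nearest to Lats2 (0.278, beside 0.901), Insl6 and Rgl3. Fgfr3 was nearest to Snrnp35 (0.096, beside 0.230), Oxa1l and Dact3. These likenesses are descriptions over arrays that share the same media and genotypes.

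Markers of other cell types were counted beside these results. In mutant cells in N2B27 against control cells there, 2 of 11 neural, 2 of 9 trophoblast, 1 of 7 epiblast and 0 of 8 mesoderm markers were higher, 1 of 10 endoderm markers was lower, and of 11 fibroblast markers 1 was higher and 1 lower. Of all genes, 4.1% were higher and 1.64% lower in that comparison. The mean of the neural markers was 0.18 to 0.23 in mutant and -0.19 to 0.06 in control cells there, and that of the trophoblast markers 0.10 to 0.21 and -0.14 to 0.01. The 2 neural markers called were Nes and Tubb3. The median difference of the neural list was -0.08, so its mean and its median went opposite ways. The median difference of the trophoblast list was 0.08. In ESC medium, 4 of 11 fibroblast markers were lower in mutant cells, with a mean of -0.48 to -0.42 in mutant and 0.02 to 0.17 in control cells, and 2 of 9 trophoblast and 2 of 7 epiblast markers were lower. The 4 fibroblast markers were Acta2, Col1a1, Col1a2 and Tagln. The other 7 were not called, and the median difference of the fibroblast list was -0.02. Of the neural markers there 2 were higher and 1 lower, and no endoderm or mesoderm marker was called. Between genotypes in ESC medium, 3.09% of all genes were higher and 3.05% lower. Values are relative to a baseline, so no marker can be called absent. Their part in the differences of the FGF genes was not tested.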

How the data were processed

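Per the submitters' processing notes, the tools were Affymetrix Expression Console 1.2 and RMA, a method that subtracts background, quantile-normalizes arrays and combines the probes of a cluster. The authors deposited log2 values per transcript cluster, where base 2 is assumed because RMA usually gives it. No genome build is named in these sources. The 28815 clusters run from -5.22 to 6.42 around 0, and in 55.8% of them at least 1 array is exactly 0, so each cluster was centred on its own baseline, by a step not given in the sources used here. Levels are lost and a filter on dim probes was not possible. The number of arrays also limits precision.

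Clusters with 1 symbol (21780) were averaged per gene, and 21689 of them matched the RefSeq table (GRCm38.p6) by Entrez identifier. Group means were fitted jointly with limma 3.58.1 in R 4.3.3 (lmFit, eBayes), with residual degrees of freedom of 7 and prior degrees of freedom of 3.02. Tests were two-sided, p-values were adjusted by Benjamini-Hochberg over 19935 genes, and a gene was called under 0.05. The script was tested on simulated data. Shared array numbers were checked by the correlation across genes of deviations from group means. In N2B27, mutant and control arrays of one number correlated at 0.256, 0.430 and 0.158, and control arrays across media at 0.138, 0.181 and 0.131. Arrays of unlike number reached 0.0792 and 0.0708. A pairing by number is possible in both sets, but the labels do not give it. Deviations within a group cancel out, which lowers the correlations of unlike numbers, so these values do not establish it. The tests above used no block for the number. Adding such a block changed no member's call between genotypes in N2B27 or between media in control cells.

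Named genes are all 9 members, Bmpr1a, called members of each pathway list with the largest differences (up to 4, or 2 where none was called), not all of which are printed, and the 3 nearest patterns of each called member. Gene values beside these were chosen after they were seen (Fgf3, and Dusp6 in N2B27). The members, lists and markers were chosen with earlier results of these data known. The lists were 5 pathway lists (other ligands, co-receptors, relay genes, feedback and target genes, and 3 factors acting on Fgf4) and 7 marker lists. Alternatives were other priors, array weights, centring, gene sets, a replicate block, only the groups compared and leaving out each array.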

Additional observations from a re-analysis of the deposited data

Results flagged for a closer look

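Fgfr3 is given here because the test of the difference between its genotype differences in N2B27 and ESC medium passed, with an interaction of -0.60 (limma, adjusted p = 0.0441). It no longer passed when any of 9 of the 11 arrays was left out (adjusted p up to 0.162). It read -0.16, 0.00 and 0.14 in mutant and 0.41, 0.49 and 0.29 in control cells in N2B27, and 0.03 and 0.05 in mutant and -0.08, -0.24 and -0.19 in control cells in ESC medium.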

How the results depend on the processing

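Among 221 recalculated values of called differences of the 9 genes, 0 changed sign, and of 514 of differences not called, 38 changed sign, none of them called by limma and none larger than 0.18. The 6 calls between media in control cells held under all alternatives run. The count of members called between genotypes in ESC medium (1) was 2 with array weights, 0 with the replicate block (Fgf17, adjusted p = 0.0545; 2 members at an unadjusted p under 0.05) and 0 with only the groups compared (3 at an unadjusted p under 0.05). In N2B27 the count of 2 was 4 with array weights, 0 with only the groups compared (5 at an unadjusted p under 0.05) and 1 with a log2 difference of at least 0.5 also asked for. In the interaction the count of 1 was 2 with array weights. Leaving out 1 array gave 0 to 2 members for genotype in N2B27, 0 to 1 in ESC medium, 3 to 5 for medium in mutant cells, 6 in control cells and 0 to 1 for the interaction. At an unadjusted p under 0.05 the counts behind those 0s were 5 in N2B27, 1 in ESC medium and 2 or 3 for the interaction. Where this left 1 mutant array in ESC medium, that array was assumed to vary like the other groups. With the replicate block, the pairing correlations of the shared numbers were 0.0365 and 0.284 for genotype in ESC medium and 0.215 and 0.266 for medium in mutant cells, too few pairs to take them as pairs, and the all-gene count of the interaction was 657 instead of 422. In that fit the interaction of Fgfr2 was called (-1.35, adjusted p = 0.0365) and that of Fgfr3 was not (-0.60, adjusted p = 0.0678). All-gene counts fell to as few as 454 of 1144 for genotype in N2B27 (without control replicate 3), 304 of 1224 in ESC medium (without mutant replicate 2) and 59 of 422 for the interaction (without mutant replicate 2 in ESC medium). They were 2882, 3138 and 1782 with array weights, and 610 and 766 for genotype in N2B27 and ESC medium without chromosomes 8, X and Y. Of 59 called differences of list genes under the naming rule, 33 stayed called under every alternative run and 12 were lost under 3 or more. The filter on dim probes was not run.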
